A study of Mus musculus with 21 samples.

Results

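The cells described here are those of the library cultured for 5 days without added cytokine that held at least 1 unique molecular identifier (UMI, a tag that marks a single captured RNA molecule) of Mki67 or Top2a. The cells were chosen by measured values, the UMIs of these 2 genes, and both genes were left out of every comparison below. They numbered 846 of the 6112 cells of the library and were set against its other 5266 cells, out of 106456 cells in the series as a whole. The 21 libraries came from naive CD8 T cells of OT1 mice, which carry a transgenic T cell receptor for an ovalbumin peptide. Beads coated with antibodies to CD3 and CD28 activated them in culture on day 0. Each culture then received IL-15, IL-2 or IL-2v (a mutant IL-2, per the labels), at 5 or 50 IU/mL, or no exogenous cytokine. The treatment labels of the 50 IU/mL libraries named by their titles for IL-2 and IL-15 read interleukin-3 and interleukin-16, and the titles were followed. Libraries were made from naive cells on day 0 and from cultures on days 3, 5 and 10, those without cytokine on days 3 and 5. Each condition was 1 library, so no p-value was computed, differences between conditions have no replicate check, and intervals cover counting error only. The age of the mice, the number of mice and pooling are not given in the labels, and sorting of live CD44+CD45.1+CD8+ cells is described there for cells from tumours.

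Mki67 encodes a protein that coats mitotic chromosomes and is widely used to mark dividing cells, and Top2a encodes the topoisomerase that untangles DNA strands in S phase and mitosis. Both transcripts belong to the gene group that peaks in G2 and mitosis. Activated CD8 T cells divide rapidly for several days, and IL-2 or IL-15, acting through JAK kinases and STAT5, normally sustains growth and survival after the T cell receptor signal has ended. Genes of S phase are switched on by E2F factors, and genes of G2 and mitosis through a promoter element known as the CHR, often next to a CCAAT box bound by NF-Y.

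Kept libraries held 3250 to 7105 cells with medians of 3016 to 5065 UMIs per cell, and the day 5 library without cytokine had a median of 3751 UMIs. Of 105012 distinct barcodes, 1434 occurred in more than 1 library, and 20 of the 846 selected cells had a barcode that was also present elsewhere. T cell genes were present throughout: all 846 cells held UMIs of at least 2 of 12 T cell markers. UMIs of at least 2 markers were found in 1 cell for B cells, in 11 cells for myeloid and dendritic cells, in 10 for gamma delta T cells, in 1 for CD4 T cells, and in no cell for NK or erythroid cells. A UMI of at least 1 marker was more common, in 337 cells (39.8%) for myeloid and dendritic cells, 330 (39.0%) for gamma delta T cells, 69 for B cells, 41 for CD4 T cells and 10 for NK cells. In cells with neither rule gene, which are less deep, the myeloid and gamma delta shares were 29.6% and 34.2%. Ms4a1, Lyz2, Csf1r, Ncr1 and Foxp3 were at 0 in all 846 cells. The labels call the cells CD8 T cells.

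Most of the 846 cells did not show the gene pattern of dividing cells. A single Top2a UMI and no Mki67 UMI was all that 523 of them held (61.8%). A further 104 held 2 or more Top2a UMIs without Mki67, 91 held Mki67 alone (10.8%), and 128 held both (15.1%). A cell's UMIs in 2 gene lists, one of DNA replication and S phase genes and one of G2 and mitosis genes, made up a median of 0.323% of all UMIs in cells with neither gene. The median was 0.325% in cells with a single Top2a UMI, 0.368% with 2 or more, 0.376% with Mki67 alone and 3.22% with both genes. From the 10th to the 90th percentile the share ran from 0.188% to 0.499% in cells with neither gene and from 1.52% to 4.72% in cells with both genes. The 10th percentile of cells with both genes was reached by 3 of the 5266 cells with neither gene, 1 of the 523 with a single Top2a UMI and 13 of the 91 with Mki67 alone. Cells are therefore named below by the genes they held, and the 128 cells with both genes are described in most detail. That emphasis was chosen after these values were seen.

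**Figure D1:**
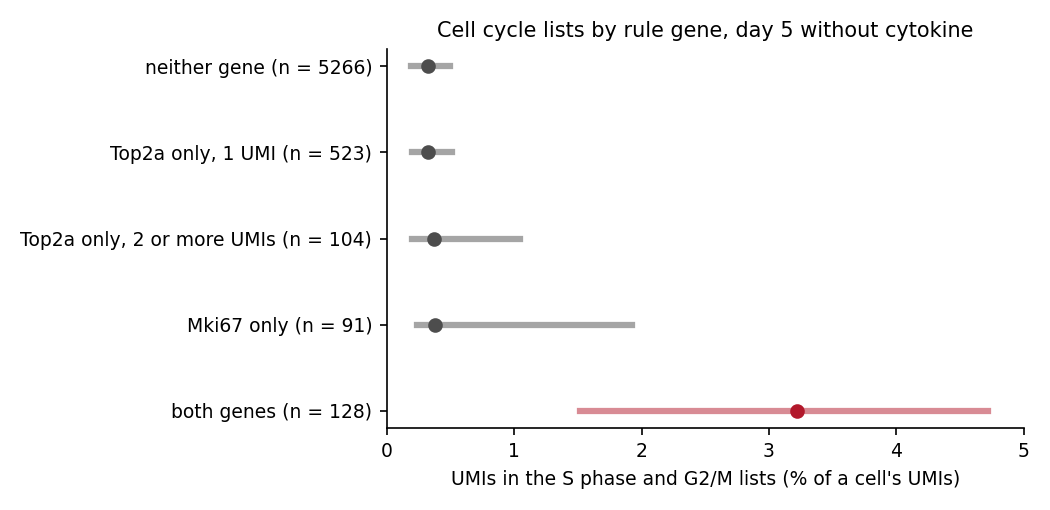
Share of each cell's UMIs that fell in the S phase and G2 and mitosis lists (x axis, percent), by the rule genes a cell held (y axis), in the day 5 library without cytokine. Points are medians over cells and bars run from the 10th to the 90th percentile. The bar of cells with both genes starts at 1.52%, and the other medians lie between 0.323% and 0.376%.

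The promoters of the rule genes, and of genes of each phase that were higher in the cells with both genes, are shown because they carry the sequence words searched for in all promoters below. Each line holds the 120 bases before the start of the RefSeq gene on build GRCm38, 5′ to 3′ on the gene's strand. Capitals mark CHR words (TTTGAA or TTCGAA on either strand) in the first 3 and E2F words (TTTCGCGC, TTTGGCGC, TTTCCCGC or TTTGCCGC on either strand) in the last 2. Mki67 lies at chr7:135716380-135716499 (minus strand), Top2a at chr11:99024190-99024309 (minus), Cdc20 at chr4:118437344-118437463 (minus), Dtl at chr1:191575545-191575664 (minus) and Rfc3 at chr5:151651209-151651328 (minus).
Mki67: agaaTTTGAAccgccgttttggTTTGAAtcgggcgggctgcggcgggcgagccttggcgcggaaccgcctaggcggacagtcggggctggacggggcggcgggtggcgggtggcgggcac
Top2a: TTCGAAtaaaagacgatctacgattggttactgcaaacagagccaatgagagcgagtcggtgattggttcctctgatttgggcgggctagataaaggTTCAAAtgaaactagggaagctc
Cdc20: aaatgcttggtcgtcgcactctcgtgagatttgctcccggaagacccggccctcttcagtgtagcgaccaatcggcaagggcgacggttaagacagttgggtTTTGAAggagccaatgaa
Dtl: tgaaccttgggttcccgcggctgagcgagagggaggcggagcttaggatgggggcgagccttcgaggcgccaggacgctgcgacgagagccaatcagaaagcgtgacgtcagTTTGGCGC
Rfc3: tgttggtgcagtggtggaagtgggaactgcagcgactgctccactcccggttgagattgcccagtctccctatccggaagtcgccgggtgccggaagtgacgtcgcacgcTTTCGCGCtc

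The 846 cells were first set against cells of the same library with neither gene, paired 1 to 1 on UMIs per cell within 5%. Pairs were found for 795 cells, with medians of 4398 and 4397 UMIs. UMIs were summed over the cells of an arm and scaled to CPM, a gene's UMIs per 1000000 UMIs of the arm. Genes with 20 CPM or more in either arm entered the comparison. Of 5342 genes, 106 (1.98%) stood higher by 2-fold or more and 1 (0.0187%) stood lower by as much. These shares are descriptions of chosen cells and of these cells alone. The G2 and mitosis list summed to 7213 CPM against 2312 CPM, and the S phase list to 2277 CPM against 1148 CPM. Nusap1, a spindle protein, stood at 134 CPM against 0.487 CPM, Birc5, the survivin of the chromosomal passenger complex, at 146 CPM against 2.92 CPM, and Ccna2, the cyclin of S phase and G2, at 55.4 CPM against 0.974 CPM. Tcf7, a transcription factor of naive and memory T cells, was at 308 CPM against 319.5 CPM. The median log2 difference was -0.06 for a list of stemness and lymph node homing genes and 0.29 for a list of effector genes.
When cells over 2 times the library's median of UMIs (7502) were left out, 17 genes were at least 2-fold higher in place of 106.

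Cells with a single Top2a UMI, paired with 523 cells of neither gene, differed from them in very few genes. Of 5316 genes, 4 (0.0752%) were past 2-fold higher and 3 (0.0564%) past 2-fold lower. None of the 22 tested genes of the G2 and mitosis list was past 2-fold, with a median log2 difference of 0.08, and the list's sum was 2348 CPM against 2301 CPM. The S phase list had a median of 0.14 over 23 tested genes. Of the 7 genes past 2-fold, Ccl4, a chemokine, stood at 119 CPM against 29.4 CPM, and 264 of its 292 UMIs came from 1 cell. For Ccl3, a related chemokine, 47 of 50 UMIs came from 1 cell. The other genes were Tmem126b and Gm4951, higher, and Gzma, Egr1 and Olfr1369-ps1, lower. Of the UMIs in the paired cells with neither gene, the 5 highest cells held 100 of 102 for Olfr1369-ps1 and 45 of 69 for Gzma.

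Cells with Mki67 alone were a mixture on the same measure. Paired with 91 cells of neither gene, 376 of 5569 genes (6.75%) were past 2-fold higher and 178 (3.2%) past 2-fold lower. The G2 and mitosis list held 34 of 49 tested genes past 2-fold (median log2 difference 2.26), but 28 of the 49 reached 20 CPM only in the cells with Mki67 and had to be higher. The whole list summed to 6355 CPM against 2194 CPM, while the S phase list held 2 higher and 2 lower of 30 tested (median 0.33). Ccnb2, a mitotic cyclin, and Birc5 stood at 179 CPM and 143 CPM, and neither had a UMI in the paired cells. The 13 cells named above, whose list share reached that of the cells with both genes, are among these 91. Counts past 2-fold in arms this small include many genes with few UMIs, since 20 CPM is a small number of molecules there.

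**Figure D2:**
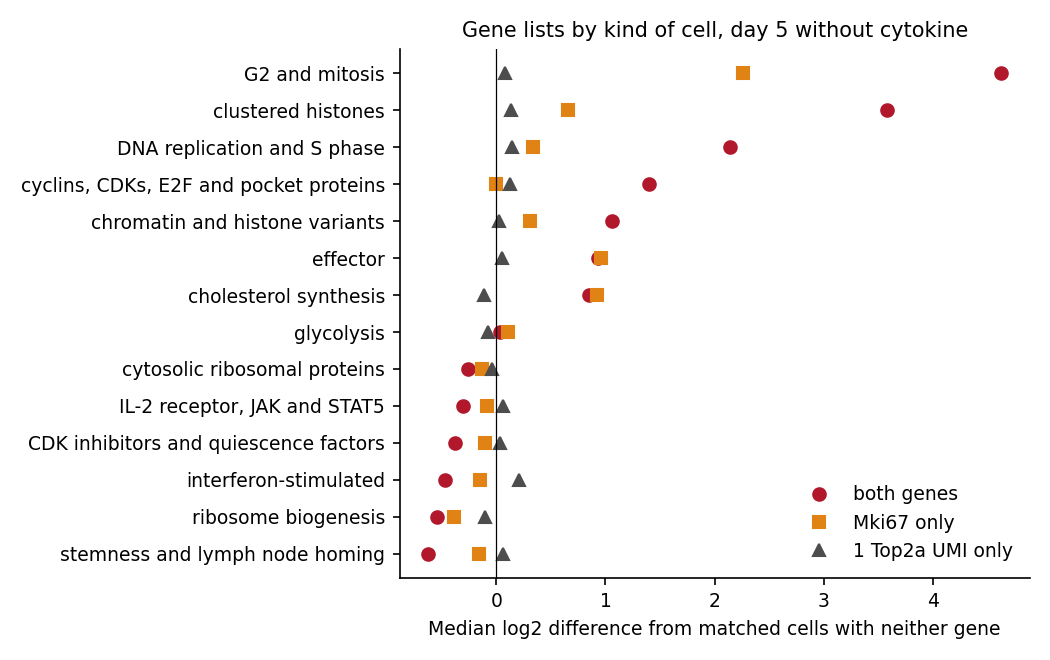
Median log2 difference of each gene list (y axis) between 3 kinds of selected cells and their own matched cells with neither gene (x axis), day 5 without cytokine. The G2 and mitosis list stands at 4.62 for both genes, 2.26 for Mki67 alone and 0.08 for a single Top2a UMI.

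The 128 cells with both genes carried high levels of the rule genes and much RNA. Their Mki67 UMIs had a median of 5 and a maximum of 27, and their Top2a UMIs a median of 14.5 and a maximum of 44. They had a median of 9515 UMIs and 2687 genes per cell, against 3666 UMIs and 1386 genes in cells with neither gene. Of the 128, 102 (79.7%) lay over 2 times the library's median, compared with 3.42% of cells with neither gene. The mitochondrial share was alike, at medians of 3.85% and 3.82%. No doublet caller was run, and the part of cell doublets in these depths was not tested. On the paired arms, at least 2 myeloid markers occurred in 5 of 106 cells with both genes and in 2 of 106 with neither. For B cells these counts were 1 and 2, for gamma delta T cells 2 and 1, and for CD4 T cells 1 and 0. At least 1 myeloid marker occurred in 60 cells against 66, and at least 1 B cell marker in 11 against 14. A CD4 T cell marker occurred in 11 cells against 5, an NK marker in 3 against 0 and a gamma delta marker in 51 against 48. The 12 T cell markers had a median log2 difference of -0.22, with none past 2-fold, below the medians of the same contrast in 18 other libraries (-0.19 to 0.12). The part of other cell types in the results below was not tested.

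Most of these cells held transcripts of S phase and of G2 and mitosis together. Set against the 90th percentile of cells with neither gene, 107 of the 128 lay above it in both lists, 16 in the G2 and mitosis list only, none in the S phase list only, and 5 in neither. Rrm2, a subunit of the enzyme that makes deoxynucleotides for replication, was detected in 81 cells, and Ccnb1, the cyclin that drives entry into mitosis, in 65. Both were detected in 39 cells, Rrm2 alone in 42 cells, Ccnb1 alone in 26 cells and neither in 21. The cells were selected on 2 transcripts that peak late in the cycle.

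Pairs of like depth were found for 106 of the 128 cells with both genes, with medians of 9057 and 9023 UMIs. The 22 cells without a partner were left out of what follows, and the paired cells with neither gene are the deepest of their kind. Among 5666 genes, 578 (10.2%) were past 2-fold higher and 264 (4.66%) past 2-fold lower, and the median log2 difference over all of them was 0.02. With ribosomal protein and mitochondrial genes left out of the totals, which lets more low genes reach 20 CPM, the counts were 653 higher and 652 lower of 7242.

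Genes of G2 and mitosis had the highest list median. Of 91 genes in the list, 89 were tested, 86 were past 2-fold higher and none lower, and 68 of them reached 20 CPM only in the cells with both genes, so that they had to be higher. The list summed to 25343 CPM against 2446 CPM. Its median log2 difference was 4.62, or 4.10 with genes at 0 set to 3 UMIs. Hmgb2, a chromatin protein of dividing cells, gave the most UMIs, 4181 against 423, and was 9.74-fold higher (8.81 to 10.8). Nusap1 gave 646 UMIs in 77 of the 106 cells against 1 UMI, and Ccnb1 gave 124 UMIs in 52 cells against 1 UMI. Ccna2 gave 240 UMIs in 73 cells and none in the paired cells, which makes it at least 78.8-fold higher when 0 is set to 3 UMIs over the arm. Hmmr, a spindle protein, was at least 60.5-fold higher on the same basis. Cdc20, the activator of the anaphase-promoting complex whose promoter is printed above, stood at 238 CPM against 3.27 CPM. The genes with the smallest differences were Pttg1, which encodes securin, at 61 CPM against 45 CPM, and Smc4, a condensin subunit, at 624 CPM against 386 CPM.

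Genes of DNA replication were higher too, by less. Of 68 genes in the S phase list, 63 were tested, 56 were past 2-fold higher and none lower, with 36 that reached 20 CPM only in the cells with both genes. The list summed to 6352 CPM against 1474 CPM, with a median log2 difference of 2.14. Rrm2 gave 263 UMIs in 61 cells against 3 UMIs in 2 cells. Esco2, an acetyltransferase that ties sister chromatids together, gave 115 UMIs against none and was at least 37.8-fold higher. Pcna, the sliding clamp of replication, stood at 306 CPM against 79.7 CPM, and Dtl and Rfc3, printed above, at 62.4 CPM against 9.83 CPM and 67.8 CPM against 13.1 CPM. Within the helicase that opens DNA at origins, the members differed: Mcm5 was at 131 CPM against 26.2 CPM and Mcm7 at 337 CPM against 83.0 CPM, while Mcm6 was only 1.82-fold higher (1.41 to 2.36).

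Histones and chromatin proteins followed the same direction. The 34 tested genes among 66 clustered histone genes were all at least 2-fold higher, 30 of them having reached 20 CPM only in the cells with both genes. They summed to 5253 CPM against 415 CPM over all 66. Hist1h1b, a linker histone, stood at 1542 CPM against 18.6 CPM. Histone genes are near copies of each other and reads may have been split between them by the counting, so the sum is the firmer value. Of 31 tested chromatin genes, 17 were past 2-fold higher and none lower, among them H2afx, the histone variant that marks broken DNA, at 581 CPM against 39.3 CPM and Lmnb1, a lamin of the nuclear envelope, at 331 CPM against 32.8 CPM.

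The regulators of entry into the cycle were split. Among 18 tested cyclins, CDKs, E2F and pocket protein genes, 11 were past 2-fold higher and 1 lower, with a median log2 difference of 1.40. As 11 of the 18 reached 20 CPM only in the cells with both genes, they had to be higher. The whole list summed to 1348 CPM against 1191 CPM, and among genes of 100 CPM or more its median was -0.51, of the opposite sign. Ccne2, a cyclin of the start of S phase, gave 66 UMIs against 5, and E2f8, a repressor of the E2F family, 24 UMIs against none. Ccnd2, the D-type cyclin that links growth signals to the cycle, was the gene lower, at 268 CPM against 563 CPM, and Ccnd3 stood at 128 CPM against 182 CPM. The CDK inhibitor Cdkn2c was higher, with 71 UMIs in 40 cells against 5 UMIs in 5 cells, and Cdkn2d, another member of that family, gave 142 UMIs against 75.

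Some genes tied to quiescence and to the naive or memory state stood past 2-fold lower in the cells with both genes. Of 21 tested CDK inhibitors and quiescence factors, Cdkn2c was past 2-fold higher and 5 were past 2-fold lower (median log2 difference -0.38). Of the 21, 3 reached 20 CPM only in the cells with neither gene and had to be lower, and 1 only in the cells with both. Pik3ip1, an inhibitor of PI3-kinase, stood at 46.3 CPM against 127 CPM. Btg1, an antiproliferative factor of resting lymphocytes, stood at 900 CPM against 1786 CPM, just under 2-fold. Of 14 tested stemness and lymph node homing genes, none was past 2-fold higher and 4 were past 2-fold lower, and 13 lay below 0 (median -0.62). Thinned to 2000 UMIs and not paired, 11 of 21 quiescence factors (median -1.04) and 8 of 14 stemness genes (median -1.12) were past 2-fold lower. Of those 21, 4 had reached 20 CPM only in the cells with neither gene. Tcf7 was detected in 58 of 106 cells against 87 of 106, at 143 CPM against 292 CPM. Ccr7, the receptor that guides T cells into lymph nodes, was found in 40 cells against 71, at 87.2 CPM against 204 CPM. Actn1 stood at 54.9 CPM against 169 CPM, and Il7r, the receptor chain for IL-7, at 284 CPM against 567 CPM. For Tcf7 and Ccr7, lower levels thus came with fewer cells that held them.

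The effector list holds genes of killing and inflammation, and also Lgals1, S100a4, S100a6 and Anxa2. Some of its genes stood past 2-fold higher in the cells with both genes, in part through a few cells. Lgals1 gave 1625 UMIs against 491 and S100a6 1222 against 466, more of the difference in the list's sum than the granzymes below. Of 22 tested effector genes, 10 were past 2-fold higher and 1 lower (median 0.93), and the list summed to 8823 CPM against 5296 CPM. Of the 22, 7 reached 20 CPM only in the cells with both genes and so had to be higher. Runx3, a transcription factor of CD8 T cells, gave 282 UMIs against 313. Lgals1, the lectin galectin-1, was found in 102 of 106 cells against 88, and was 3.26-fold higher (2.95 to 3.62). Anxa2, a membrane-binding annexin, was found in 73 cells against 29, at 193 CPM against 65.5 CPM. S100a6 was 2.58-fold higher (2.32 to 2.88) and S100a4 3.63-fold higher (2.86 to 4.64), both calcium-binding proteins. S100a4 shares 51.7% of its exonic bases with another annotated gene on the same strand, so its reads may be shared. Lgals1 and Anxa2 were thus spread over most cells.

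Other effector genes were concentrated. Gzmb, the protease of cytotoxic granules, gave 215 UMIs in 44 cells against 54 UMIs in 20 cells. Gzma, a second granule protease, gave 134 UMIs in 18 cells against 17 UMIs in 3 cells, and its 5 highest cells held 103 of the 134. Ccl5, a chemokine of effector and memory cells, was 1.35-fold higher (1.26 to 1.45), at 2005 CPM against 1487 CPM, with 64 and 66 cells positive. Xcl1, another chemokine and the gene with the lowest log2 difference among those named (-2.94), gave 24 UMIs in 16 cells against 187 UMIs in 19 cells. As 1 cell with neither gene held 89 of those 187 UMIs, the value for Xcl1 rests on few cells: without that cell its level was 108 CPM, against 25.8 CPM. Trdc, a T cell receptor delta gene present in both arms, was found in 49 cells against 47, at 232 CPM against 175 CPM, and its part in the effector values was not tested.

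The effector values were looked at with depth handled in other ways. Thinned to 2000 UMIs and not paired, 18 of 21 effector genes lay above 0, 10 of them past 2-fold, with a median of 0.97 and sums of 9139 CPM against 4526 CPM. Of those 21, 6 had reached 20 CPM only in the cells with both genes. Among cells with both genes at or below 2 times the library's median UMIs, 26 could be paired. In them 83 of 85 tested G2 and mitosis genes stood past 2-fold higher, 68 of the 85 having reached 20 CPM only in the cells with both genes, and the list summed to 21502 CPM against 2076 CPM. In the same pairs 14 of 15 stemness genes lay below 0. Of 21 effector genes in these 26 pairs, 10 lay above 0 and 11 below, and the sum was 8240 CPM against 5617 CPM.

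**Figure D3:**
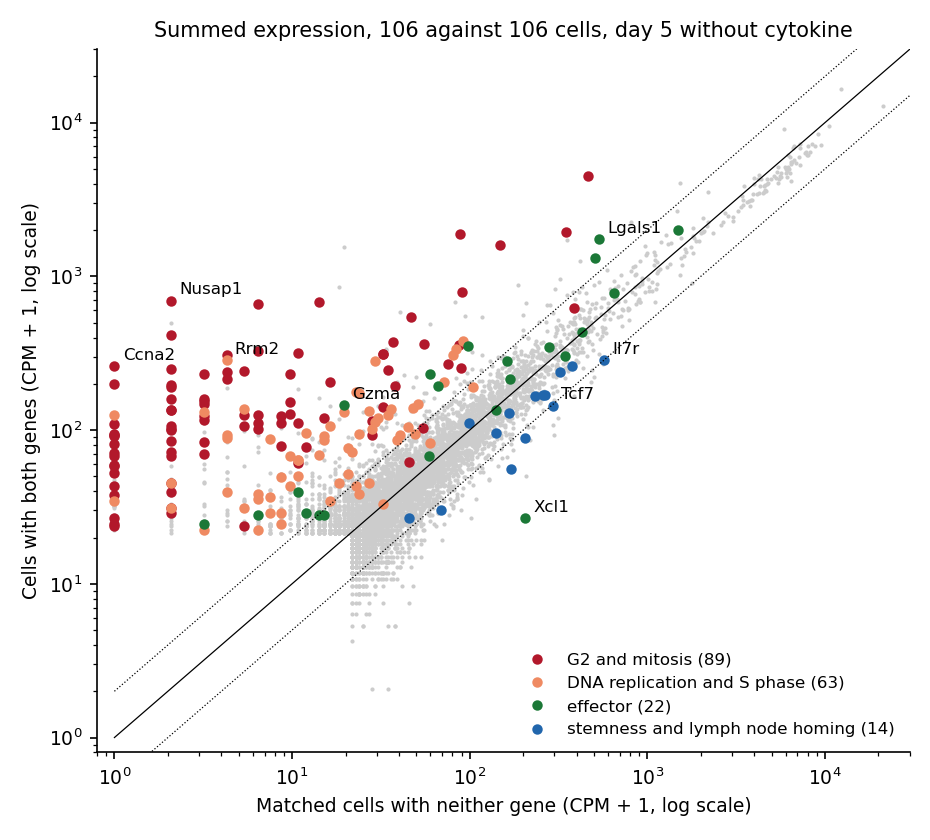
Summed expression of each tested gene in the 106 cells with both genes (y axis) against 106 depth-matched cells with neither (x axis), in CPM + 1 on log scales. The solid line marks equal levels and the dotted lines 2-fold, and colours mark 4 gene lists with the number tested. Of the 89 G2 and mitosis genes, 68 lie below 20 CPM in cells with neither gene, and 13 of the 14 stemness genes lie below the solid line.

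Signalling and growth genes gave a mixed picture. No gene of the IL-2 receptor, JAK and STAT5 list was at least 2-fold higher and 3 of 14 were at least 2-fold lower (median -0.31). Socs1, a brake on cytokine signalling, stood at 34.4 CPM against 107 CPM, Pim2, a survival kinase, at 22.6 CPM against 63.3 CPM, and Myc, the growth regulator, at 33.4 CPM against 80.8 CPM. Of the 14, 9 lay below 0 and 5 above. Pim1, a related kinase, was 1.81-fold higher (1.31 to 2.51) and Odc1 1.65-fold higher (1.19 to 2.32). Of the receptor chains, Il2ra was at 38 CPM against 33 CPM and Il2rb at 179 CPM against 143 CPM, while Il2rg, the shared gamma chain, gave 234 UMIs against 316. In the activation list, 1 of 17 tested genes was past 2-fold higher and none lower (median -0.09), and the list summed to 943 CPM against 978 CPM. That gene was Tfrc, the transferrin receptor that brings in iron, with 48 UMIs in 31 cells against 6 UMIs in 6 cells. Tfrc reached 20 CPM only in the cells with both genes and so had to be higher. Of 18 tested BCL2 family and p53 genes only Bbc3, a killer protein of that family, was past 2-fold, at 26.9 CPM against 75.3 CPM.

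Biosynthesis lists moved less than cycle lists. Of 12 tested cholesterol synthesis genes, 4 were at least 2-fold higher and all 12 lay above 0 (median 0.85), though 4 of the 12 had reached 20 CPM only in the cells with both genes and had to be higher. The whole list summed to 693 CPM against 405 CPM, with Fdps, which makes farnesyl diphosphate, 2.54-fold higher (1.59 to 4.16). None of 15 glycolysis genes was past 2-fold (median 0.04, of the other sign when ribosomal protein and mitochondrial genes were left out of the totals). Thinned to 2000 UMIs and not paired, 3 of 15 were past 2-fold higher and 2 lower (median 0.32), and the list summed to 3930 CPM against 2952 CPM. Of those 15, 1 had reached 20 CPM only in the cells with both genes and 2 only in the cells with neither. Ribosome biogenesis genes stood lower, with 9 of 31 at least 2-fold lower and a median of -0.54. Of these 31, 6 reached 20 CPM only in the cells with neither gene and had to be lower, and the median was 0.06 when cells were thinned to 2000 UMIs and not paired. The ribosomal proteins took 316492 CPM against 375873 CPM.

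Interferon-stimulated genes were mostly lower. Of 21 tested genes, 7 were at least 2-fold lower and none higher (median -0.47). Thinned to 2000 UMIs and not paired, 11 of 24 were at least 2-fold lower (median -0.93). Of those 24, 5 had reached 20 CPM only in the cells with neither gene. Igtp, a guanosine triphosphatase of interferon defence, was found in 46 of 106 cells against 67, at 92.5 CPM against 296 CPM. Ifi27l2a did not share the direction, at 879 CPM against 502 CPM. Outside the lists, Iigp1 and Gbp6, further interferon-induced guanosine triphosphatases, were among the 15 genes of lowest log2 difference, at 49.5 CPM against 207 CPM and 18.3 CPM against 68.8 CPM. Exons of Gbp6 overlap another annotated gene on the same strand.

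The promoter words were unevenly spread over these genes. Of all 32851 windows of 300 bases, 19.2% held a CHR word, 2.26% an E2F word and 37.4% a CCAAT box, on either strand. Of the 5784 windows of the genes tested in cells with both genes, 15.3% held a CHR word, 4.79% an E2F word and 38.0% a CCAAT box. Of the windows of genes at least 2-fold higher in cells with both genes, 32.9% held a CHR word and 13.5% an E2F word, and of the windows of genes at least 2-fold lower, 12.6% and 2.67%. In the G2 and mitosis list 70.2% of 84 windows held a CHR word and 57.1% held it together with a CCAAT box. In the S phase list 36.1% of 61 windows held an E2F word and 19.7% a CHR word. These are matches of letters in a window and say nothing of binding.

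How common such cells were depended on the number of UMIs looked at, so each cell was thinned to 2000 UMIs to compare libraries. Cells with fewer than 2000 UMIs were left out, 109 in the day 5 library without cytokine and between 57 and 393 over the libraries. On that basis 8.08% of cells (7.40% to 8.80%, exact binomial interval) in the day 5 library without cytokine held a UMI of either gene and 1.20% held both. Of the other 20 libraries, 18 had a larger share with both genes and 2 a smaller one. The naive cells, which should hold few dividing cells, had 1.70% with either gene and 0.358% with both. On day 3 without cytokine the shares were 51.0% and 25.8%. At day 5, both genes were held by 4.28% of cells in 5 IU/mL IL-2. The share was 5.17% in 5 IU/mL IL-15 and 36.6% in 50 IU/mL IL-2v. The smallest share was that of 5 IU/mL IL-15 on day 10, 0.0371%. Without thinning, 13.8% (13.0% to 14.7%) of cells in the day 5 library held either gene and 2.09% held both.

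**Figure D4:**
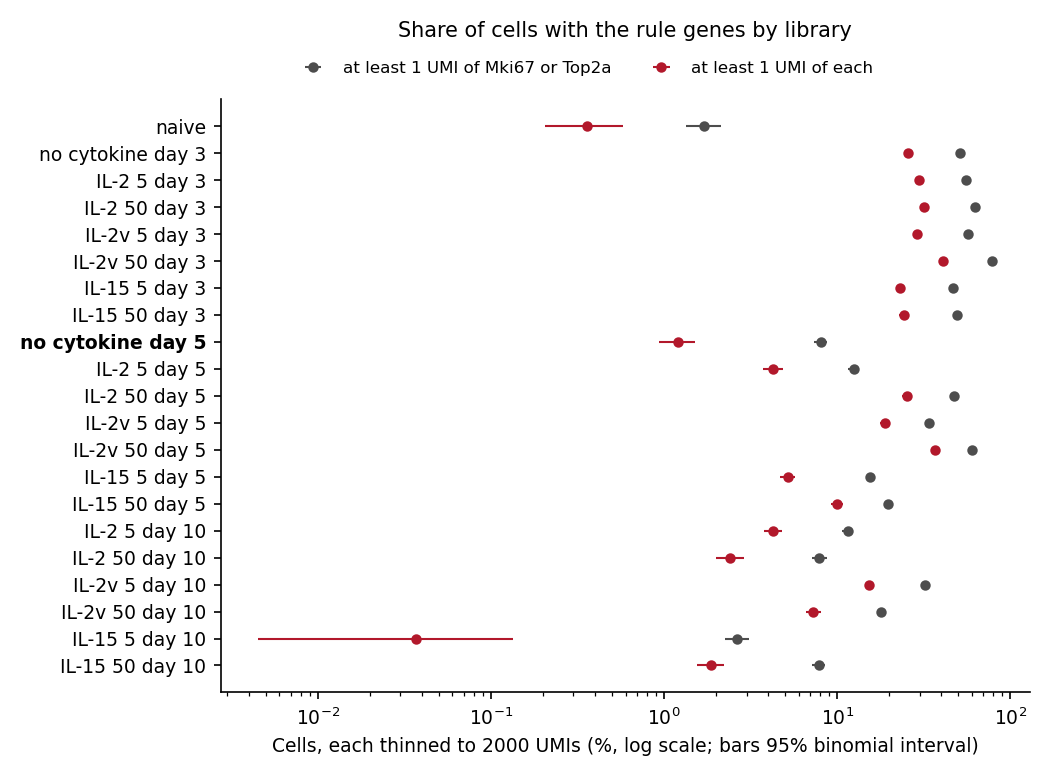
Share of cells with at least 1 UMI of Mki67 or Top2a (grey) and of each (red) in every library after thinning to 2000 UMIs (x axis, percent, log scale), with 95% binomial intervals. Cells with fewer than 2000 UMIs were left out. Numbers in the library names are IU/mL. Day 5 without cytokine stands at 8.08% and 1.20%, to the left of every other day 5 library.

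The same contrast, cells with both genes against matched cells with neither, could be made in 18 other libraries with at least 50 pairs. The G2 and mitosis list lay above 0 in all 18, with medians of 1.67 to 5.38 against 4.62 here, and the S phase list at 0.41 to 2.81 against 2.14. The effector list had a median of 0.93 here, and in the other 18 it ran from -0.55 to 0.25 and lay below 0 in 17. In the 26 pairs here at or below 2 times the library's median UMIs, the effector median was -3.4e-05. Summed over all cells of each kind, effector genes stood higher in cells with both genes in a pair of the other day 5 libraries, at 7698 CPM against 5953 CPM for IL-2 and 5638 CPM against 4052 CPM for IL-15, both at 5 IU/mL. They stood lower in the other four, at 6447 CPM against 8038 CPM for IL-2 and 4626 CPM against 4883 CPM for IL-15 at 50 IU/mL, and for IL-2v at 5267 CPM against 5757 CPM (5 IU/mL) and 7451 CPM against 9037 CPM (50 IU/mL). Over cells with either gene, the effector median was 0.29 here and 1.34 in the naive cells. Effector genes past 2-fold higher here differed in direction elsewhere. Gzma had a log2 difference of 2.89 here and lay below 0 in 14 of 18. Its day 5 values were 2.26 for IL-15 and 2.88 for IL-2, both at 5 IU/mL. S100a6 was at 1.37 here and above 0 in 1 of 18, and Lgals1 at 1.70 here and above 0 in 12 of 18. Stemness genes were lower in cells with both genes in 16 of the 18, at -0.87 to 0.20. Tfrc was higher in all 18, by 0.17 to 1.28 against 2.80 here. Each value comes from 1 library with its own set of tested genes, and the differences between libraries were not tested.

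**Figure D5:**
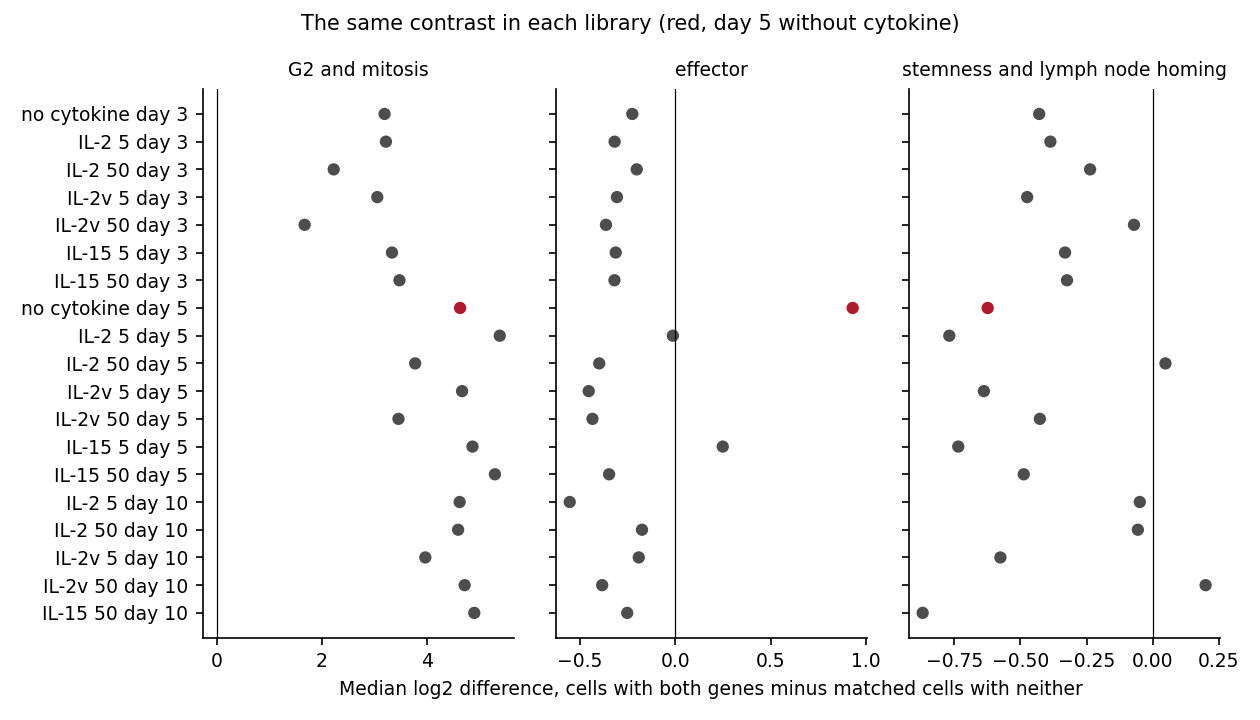
Median log2 difference between cells with both genes and depth-matched cells with neither (x axes) for 3 gene lists, in each library with at least 50 pairs (y axis; numbers are IU/mL). Red marks day 5 without cytokine, at 4.62 for G2 and mitosis, 0.93 for effector genes and -0.62 for stemness.

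Cells with both genes at day 5 were then set against those of day 3, both without cytokine. All 128 found a partner of like depth. Of 5828 genes, 195 (3.35%) were past 2-fold higher at day 5 and 380 (6.52%) past 2-fold lower. The cycle lists were close: the S phase list had a median log2 difference of -0.01 and the G2 and mitosis list of 0.42, with 6 of 90 genes at least 2-fold higher. Glycolysis genes were lower in 18 of 20 (median -1.54), summing to 4106 CPM against 13455 CPM, and cholesterol synthesis genes in 19 of 22 (median -1.39), at 702 CPM against 1996 CPM. Effector genes stood past 2-fold higher in 15 of 23 and lower in 2 (median 1.74). A gene that reached 20 CPM on only 1 of the days had to be higher on that day. These list counts include such genes, and their number is not given here. Ccl5 stood at 2099 CPM against 214 CPM, and Bnip3, a mitochondrial protein induced by low oxygen, at 11.8 CPM against 99 CPM.

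In cells with neither gene, metabolic lists were also lower at day 5, and the effector sum was lower as well. Paired by depth, 1752 of these cells had 192 of 5475 genes (3.51%) past 2-fold higher at day 5 and 279 (5.10%) past 2-fold lower. Their day 5 arm held 7024372 UMIs against 1188131 for cells with both genes, so these shares are not like for like. List medians for these pairs are not given here. The sums below for cells with neither gene ran over all of them, unpaired. They are not the paired measure given above for cells with both genes. Summed over all cells with neither gene, glycolysis genes were at 3022 CPM at day 5 and 14179 CPM at day 3, and cholesterol genes at 345 CPM and 1294 CPM. Effector genes were at 4598 CPM and 5606 CPM. Ccl5 was at 1417 CPM at day 5 and 236 CPM at day 3, while Gzmb was at 34.0 CPM and 680 CPM. Summed in the same unpaired way over all cells with both genes, effector genes were at 8778 CPM at day 5 and 5017 CPM at day 3. In cells with both genes Gzmb was at 223 CPM at day 5 and 586 CPM at day 3. Gzmb was thus lower at day 5 in both kinds of cell.
Over all 846 selected cells, day 5 against day 3 gave 186 genes past 2-fold higher (3.17%) and 496 lower (8.45%) of 5868. With TMM, a scaling that leaves out extreme genes, the split was 252 higher and 386 lower, and the median over all genes moved from -0.05 to 0.07.

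Cells with both genes were also set against those of day 5 cultures that had cytokine. For 5 IU/mL IL-15, with 127 pairs, 83 of 5595 genes (1.48%) were past 2-fold higher without cytokine and 131 (2.34%) past 2-fold lower. The S phase and G2 and mitosis lists had medians of 0.20 and -0.07. Cholesterol synthesis genes were at least 2-fold lower in 10 of 16 (median -1.22), and ribosome biogenesis genes in 9 of 30 (median -0.59). Here too, genes that reached 20 CPM only with cytokine had to be lower without it, and their number is not given. Bcl2, the survival protein, stood at 34 CPM against 222 CPM and Myc at 30 CPM against 100 CPM, while Ccl5 stood at 2101 CPM against 615 CPM. In cells with neither gene, over 5260 pairs, 13 of 5218 genes (0.249%) were past 2-fold higher and 22 (0.422%) lower. Without cytokine, the arm with both genes held 1186572 UMIs and the arm with neither 20868846. Counting error passes 2-fold more readily in the smaller arm, so these shares are not like for like. Over all selected cells, with 844 pairs, 39 of 5480 genes (0.712%) were higher and 59 (1.08%) lower.

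For 50 IU/mL IL-2v at day 5, over 91 pairs, 376 of 6354 genes (5.92%) were past 2-fold higher and 1138 (17.9%) past 2-fold lower in the cells without cytokine. All 20 tested glycolysis genes were at least 2-fold lower (median -2.50), at 3741 CPM against 18849 CPM. Cholesterol synthesis genes were lower in 21 of 23 (median -2.11), and IL-2 receptor, JAK and STAT5 genes in 12 of 19 with none higher (median -1.65). Any of the genes in these 3 lists that reached 20 CPM only with IL-2v had to be lower, and their number is not given. Stemness genes were at least 2-fold higher in 7 of 15 and lower in 1 (median 0.85). The G2 and mitosis list had a median of 0.26, with 3 of 90 genes past 2-fold higher. Cells with neither gene, over 1613 pairs, had 361 of 6072 genes (5.95%) past 2-fold higher and 937 (15.4%) lower against this library. Their arm without cytokine held 5484268 UMIs against 741449 for cells with both genes, so these shares are not like for like either. Over all selected cells, 363 of 6421 genes (5.65%) were past 2-fold higher and 1305 (20.3%) lower against this library. TMM scaling turned these counts into 689 higher and 808 lower and moved the median of all genes from -0.29 to 0.05, and the list medians are to be read against that shift.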

How the data were processed

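The authors deposited raw counts, whole numbers of UMIs per gene symbol and cell, in 1 table per library. The submitters' processing notes name Cell Ranger, Seurat 3.0.2, Seurat 4.0.1 and mm10 (GRCm38), with no role given. From the deposited counts, cells were kept with 1000 or more UMIs, 500 or more genes and no more than 10% mitochondrial UMIs. Doublets were not called. Cells were paired on UMIs without the 2 rule genes, within 5%, deepest first. Summed UMIs were scaled to CPM and compared as log2(CPM + 1), which understates changes of low genes. Intervals are exact at 95% (Poisson or Clopper-Pearson). The summing and pairing were tested on simulated data. The text names genes among the 15 highest and 15 lowest with 50 CPM or more (8 and 8 between libraries), and members of 27 lists (no value is given for a list that had no tested gene). The members and lists were chosen with earlier results of these data known. Genes were placed with GENCODE on GRCm38, and 4562 of 5666 tested genes had a RefSeq promoter window. Tools were Python 3.11.15, numpy 2.4.6, scipy 1.17.1 and pandas 2.3.3.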

Additional observations from a re-analysis of the deposited data

Results flagged for a closer look

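For 3 results the direction in the day 5 library without cytokine was opposite to that of day 3, past 2-fold in each, and the difference between the days was not tested. Gm16196 had a log2 difference of -1.045 (1.19 at day 3) over all 846 selected cells and of -1.024 (1.273 at day 3) in cells with both genes. A single cell with neither gene held 17 of the 86 Gm16196 UMIs of its arm in the first contrast, where the selected cells held 40, and 17 of 29 in the second, where they held 14. Without the 17 UMIs of that cell, neither value would be past 2-fold. Nrn1 had a log2 difference of 1.092 in cells with both genes (-1.716 at day 3), from 27 UMIs in 9 cells against 12 UMIs in 9 cells.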

How the results depend on the processing

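No paired analysis was possible because each condition is 1 library. Over all selected cells, genes past 2-fold numbered 106 higher and 1 lower. They were 160 and 0 without matching, 114 and 0 when matched on genes per cell, 104 and 2 when matched within 1%, 89 and 2 when thinned to 2000 UMIs, and 101 and 2 without cells with other lineages' markers. Cells with 2 or more UMIs of the pair gave 349 and 36. Cells with any Mki67 UMI gave 399 and 80, and cells with any Top2a UMI 120 and 2, cells with both genes included. Without cells over 2 times the median UMIs there were 17 and 3. A pseudocount of 10 CPM gave 80 and 0, no filter on low values 405 and 61, a filter of 100 CPM 20 and 0, and means of single-cell CPM 55 and 2. Scaling to totals that leave out ribosomal protein and mitochondrial transcripts gave 149 and 4.

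For cells with both genes (578 higher, 264 lower), matching on genes per cell gave 413 lower and thinning 599 lower. Without cells over 2 times the median UMIs there were 1351 higher and 871 lower from 26 pairs, without a filter 1955 and 1695, at 100 CPM 170 and 31, with a pseudocount of 10 CPM 98 lower, and scaling without ribosomal protein and mitochondrial transcripts 652 lower. At 100 CPM the median of the cyclin list was -0.51, of the opposite sign.

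Leaving out comparison cells with 3 or more UMIs of the S phase and G2 and mitosis lists removed nearly all of them, since 99.5% of cells in the library hold as many. The few pairs left gave 1185 higher and 901 lower over all selected cells, with Pclaf at -4.31. For cells with both genes they gave 1907 and 1597, with the cyclin list at -1.49, Xcl1 and Bbc3 each at 5.96 and Zfas1 at 0.58, all of the opposite sign.

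The share of selected cells, 13.8%, was 8.08% and 4.88% after thinning to 2000 and 1000 UMIs, 4.07% with 2 or more UMIs, and 11.4% without cells over 2 times the median UMIs. The share with both genes, 2.09%, was 1.20% and 0.736% after thinning. Between days 5 and 3, calls over all selected cells were 383 with a pseudocount of 10 CPM and 1809 without a filter. The corresponding medians over the cytokine libraries were 487 and 1724. Where no cause is given, the cause was not tested. Gene values were followed for the 15 highest and 15 lowest genes only, which gave 540 values over the other settings. In cells with both genes, 500 of 540 moved by less than their counting error and 3 that were past 2-fold changed sign. For the highest genes that error was wide, since the paired cells with neither gene held few or no UMIs of them. Nusap1, with 646 UMIs against 1, had an interval of 113.9-fold to 2.519e+04-fold. Staying within counting error was thus nearly fixed in advance for such genes and does not show that their values were stable. Of 360 list medians in cells with both genes, 183 stayed within counting error and 175 moved beyond it. A further 2 readings of a list past 2-fold changed sign, and more changes of sign occurred among smaller medians. The list counts and gene counts are not to be compared, since the error of the highest genes was so wide. Over all selected cells, 192 of 359 list medians and 121 of 540 gene values moved beyond counting error.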
